A study of Mus musculus with 2 samples.

Results

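The genes described here encode the machinery that licenses, fires and copies DNA replication origins, together with the cyclins and E2F factors that bring a cell into S phase. Members were listed by gene symbol and role, with earlier results of these data known, and the symbols were matched to the Ensembl identifiers of the deposited count table. All 53 listed genes were found among the 45318 genes of the table, and all 53 passed the filter of a mean of at least 1 CPM (counts scaled to library size by the TMM method), which 11504 genes passed. Of all gene counts, members held 0.704% (vehicle) and 0.668% (brequinar).

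RNA came from GFP-positive leukaemia cells driven by the leukaemogenic fusion MLL/AF9 in mice of the C57Bl/6 background. Cells were sorted from the marrow of leukaemic animals that had received vehicle or brequinar, an inhibitor of the pyrimidine synthesis enzyme dihydroorotate dehydrogenase. Each treatment has 1 library, so no p-value or replicate spread can be given, and each interval below is an exact 95% interval of counting error only. PCR copies were not marked by molecular identifiers, so these intervals can be too narrow. Both libraries held about equal gene counts (47935476 and 47950714). The sources used here do not give the dose, its duration, the number of animals per library or the construct that expresses the fusion. In bulk RNA of this kind, fewer cells of a type and less RNA per cell cannot be told apart.

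Replication starts when the origin recognition complex, Cdc6 and Cdt1 load the ring of Mcm2 to Mcm7 onto DNA in G1. The Dbf4-dependent kinase Cdc7 and cyclin-dependent kinases then turn the loaded ring into an active helicase with Cdc45 and the GINS complex, and polymerases alpha, delta and epsilon copy the strands. Cyclin E and the E2F factors, which are restrained by the retinoblastoma family, drive the expression and firing of this system, and blasts of acute leukaemia depend on it to divide.

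The replication machinery itself stood at nearly the same level in both libraries, and the larger differences lay upstream of it. E2f2 was 2.77-fold higher in the brequinar library, Ccne2 1.92-fold and Ccne1 1.71-fold, while no gene of the helicase, the origin complex, the polymerases or the clamp passed 1.5-fold. At 1.5-fold or more, 3 of 53 members were higher (5.66%) against 12.7% of all genes tested, and none was lower against 12.7% of all genes tested. At 2-fold, 1 member was higher and none lower, beside 6.45% and 4.40% of all genes tested. Among the 7798 tested genes within the members' range of mean CPM, the shares were lower, 9.78% higher and 6.50% lower at 1.5-fold, and 3.76% and 1.63% at 2-fold. The gap between members and genes of like abundance is therefore smaller than that to all genes.

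The median log2 ratio (brequinar over vehicle) of the members was 0.040, beside 0.00029 for all genes tested, and the quartiles lay at -0.11 and 0.23, beside -0.30 and 0.29. With scaling by total counts the members' median was -0.051 and that of all genes -0.091, so the sign of the median turned and its distance to the median of all genes stayed at 0.040. By sign, 30 members were above 0 (23 with total counts) and 23 below, where 50.1% of all genes tested were above 0. Among the tested genes within the members' range of mean CPM, the median was 0.035, with quartiles at -0.20 and 0.27. Of these genes 54.0% were above 0. Each of these values lay nearer to that of the members than the value of all genes tested did. Within 1.25-fold lay 41 of 53 members (77.4%) and 53.1% of all genes tested. This share was not computed for genes within the members' range of mean CPM, whose quartiles lay closer together than those of all genes. Counting error was small: the interval lay wholly above 1 for 25 members (39.2% of all genes tested) and wholly below 1 for 16 (37.7%).

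**Figure D1:**
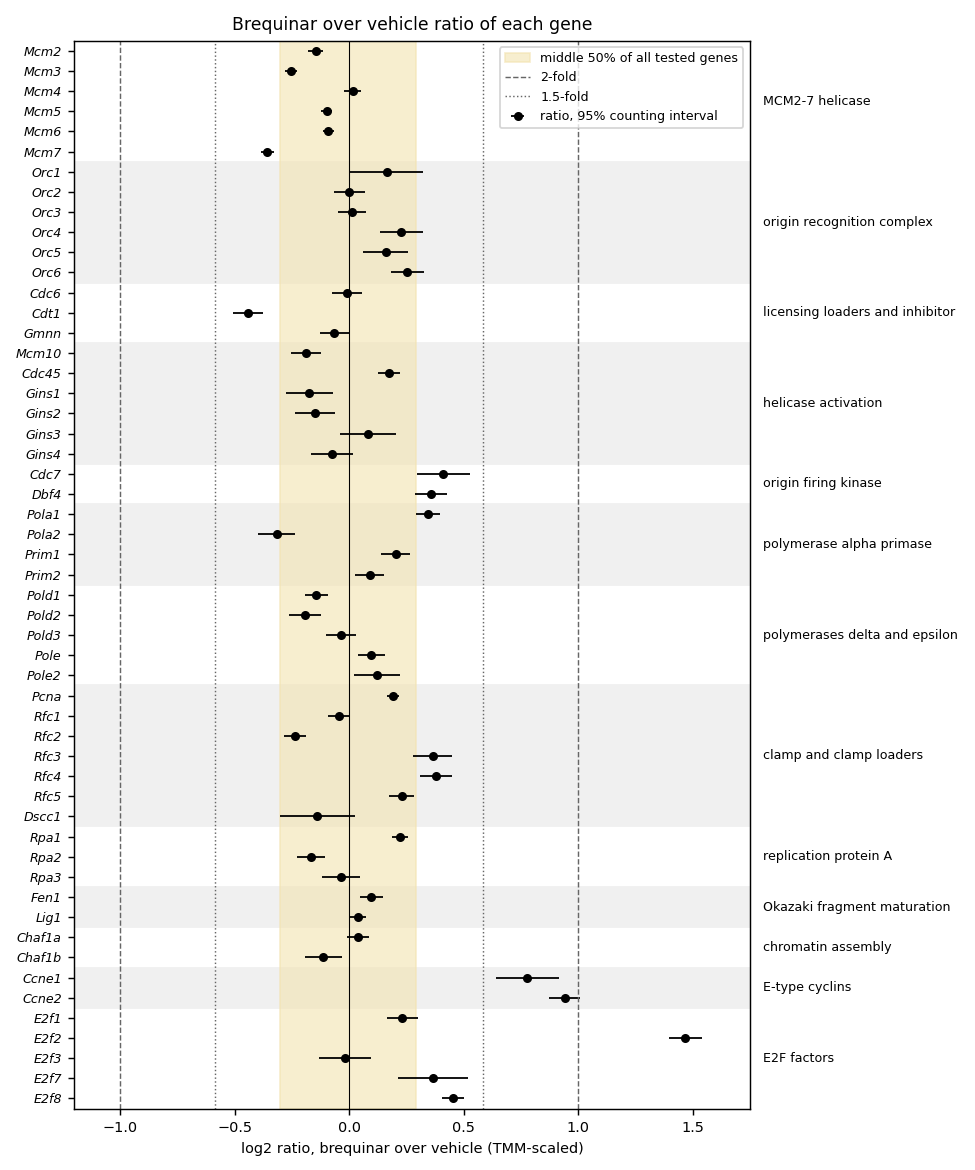
Log2 ratio of brequinar over vehicle for each of the 53 genes, grouped by role. Points are TMM-scaled ratios from 1 library per treatment, bars are 95% counting intervals, and the shaded band spans the quartiles of all genes tested. E2f2 is the point beyond 2-fold, Ccne2 and Ccne1 lie beyond 1.5-fold, and Cdt1 is the lowest at -0.44.

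Of the 6 genes of the MCM2-7 helicase, the motor that unwinds the DNA duplex, 5 were lower in the brequinar library under every scaling tried. With TMM scaling each was lower by less than 1.3-fold, and with total counts the lowest log2 ratio, that of Mcm7, was -0.45. Mcm7 differed the most, with 473 CPM in the vehicle library and 369 CPM in the brequinar library (1.28-fold lower, interval 1.26 to 1.31). Mcm3 was at 472 and 396 CPM and Mcm2 at 351 and 317 CPM. Mcm6 and Mcm5 differed less, Mcm6 at 623 and 584 CPM and Mcm5 at 569 and 532 CPM. Mcm4 did not follow them, at 258 and 261 CPM, and its sign turned with scaling. Summed over the 6 genes, the helicase took 2746 CPM in the vehicle and 2459 CPM in the brequinar library, which is 40.3% and 35.7% of the CPM of all members. Mcm7 shares 321 exonic bases with its antisense neighbour Ap4m1 (61.2 and 30.03 CPM), and whether counting used strand is not known here.

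Promoter sequences are shown for the helicase genes whose window held a word recognised by E2F factors. Capitals mark matches to these words: TTTGGCGC, TTTGCCGC, TTTCGCGC and TTTCCCGC, searched on both strands. Sequences are RefSeq windows (GRCm38.p6) written along the gene's strand, counted from the RefSeq start. For Mcm5 (chr8:75109309-75109508, plus strand), Mcm6 (chr1:128359706-128359905, minus strand) and Mcm7 (chr5:138171884-138172083, minus strand) they cover the 200 bases before the start. For Mcm3 (chr1:20820266-20820294, minus strand) a site just after the start is given.
Mcm5: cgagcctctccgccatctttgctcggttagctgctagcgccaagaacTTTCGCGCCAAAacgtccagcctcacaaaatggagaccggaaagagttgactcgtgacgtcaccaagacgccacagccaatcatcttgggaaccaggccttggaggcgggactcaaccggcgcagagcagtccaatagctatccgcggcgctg
Mcm6: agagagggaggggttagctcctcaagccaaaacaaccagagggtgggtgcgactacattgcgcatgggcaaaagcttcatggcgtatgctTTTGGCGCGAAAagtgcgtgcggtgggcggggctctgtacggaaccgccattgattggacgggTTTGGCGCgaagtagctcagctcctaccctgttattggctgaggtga
Mcm7: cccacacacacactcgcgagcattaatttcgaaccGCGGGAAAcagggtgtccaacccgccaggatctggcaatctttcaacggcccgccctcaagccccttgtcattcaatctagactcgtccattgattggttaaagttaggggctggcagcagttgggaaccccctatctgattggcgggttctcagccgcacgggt
Mcm3: gGCGGGAAAacttgggaagtTTTGGCGCc

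In Mcm5 and Mcm6 a word on each strand overlaps within 12 bases, starting at -153 and -149 in Mcm5 and at -110 and -106 in Mcm6. Mcm6 holds a further word at -47, and Mcm7 a second one after the start, at 17. No such word was found in the Mcm2 window, and Mcm2 was lower by a similar amount (log2 ratio -0.15) to Mcm5 (-0.098) and Mcm6 (-0.091). Mcm4 had no matched RefSeq window.

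An E2F word was found in 17 of the 43 members with a matched RefSeq promoter window (39.5%), where a window runs from 250 bases before to 50 after the start. Over all 20589 promoters, 1 window a gene, the share was 2.64%, and over the 8687 promoters of tested genes it was 4.50%. The CCAAT box stood in 26 of 43 member windows (60.5%) against 38.2% of all promoters and 39.9% of those of tested genes. The GC box GGGCGG stood in 33 (76.7%) against 42.7% and 65.3%. The word TTTGAA, part of the cell cycle homology region of mitotic genes, was in 8 (18.6%) against 16.9% and 12.1%. Of 22 promoters of G2 and mitosis genes, 17 held TTTGAA (77.3%) and 1 an E2F word, beside 8 and 17 of the 43 member windows. Words of 5 to 8 letters also occur by base composition, and the median GC content was 63.0% in member windows, 60.7% in those of tested genes and 55.0% in all.

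**Figure D2:**
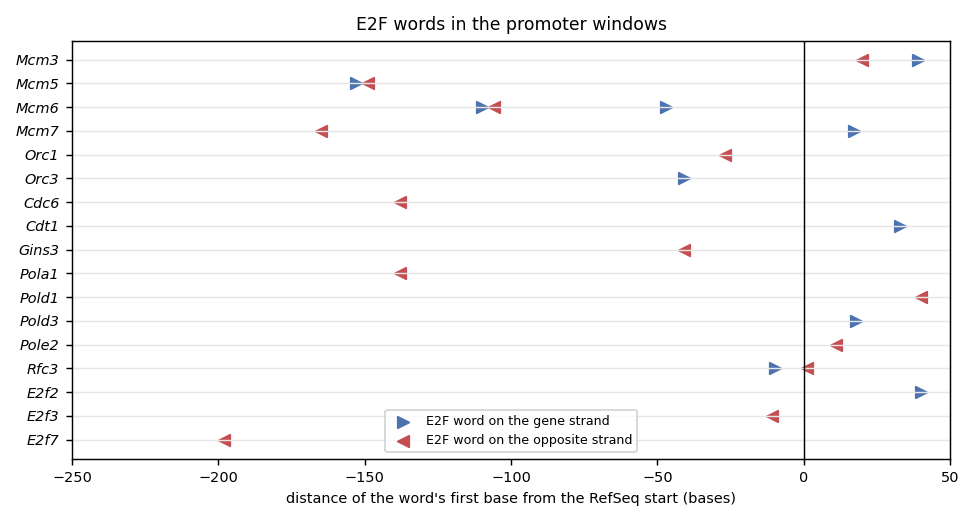
Position of each E2F word in the windows of the 17 members that hold one. The horizontal axis is the distance in bases of the word's first base from the RefSeq start, and arrows give the strand. Paired opposite arrows in Mcm5 and Mcm6 are the overlapping words, and E2f2 has its word at 40.

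Members with an E2F word had a median log2 ratio of -0.0080 (n = 17, range -0.44 to 1.47), and those without one 0.17 (n = 26, range -0.32 to 0.78). Both the lowest member, Cdt1, and the highest, E2f2, hold a word. The ranges of the groups with and without a word overlap. Only exact matches within 1 window a gene were sought, so a gene without a word can still hold an E2F site.

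The origin recognition complex, which marks origins and recruits the loading factors, was level or slightly higher in the brequinar library. All 6 genes were at or above a log2 ratio of 0, of which Orc2 and Orc3 turned sign with total-count scaling and Orc1, Orc4, Orc5 and Orc6 did not. Orc6 was at 60.0 and 71.6 CPM (1.19-fold higher, interval 1.14 to 1.25), and Orc4, an ATP-binding subunit, at 36.3 and 42.5 CPM. Orc6 shares 171 exonic bases with the antisense gene Vps35 (238 and 292 CPM), so its direction is uncertain. Orc5 was at 33.2 and 37.1 CPM. Orc1, the subunit whose level cycles in many cells, was at 12.6 and 14.1 CPM (interval of the fold 1.002 to 1.252). With TMM scaling, Orc2 (74.8 and 74.9 CPM) and Orc3 (86.8 and 87.7 CPM) could not be separated from equal levels by counting error. Their log2 ratios were -0.090 and -0.078 with total counts, so this depends on the scaling. Orc2 shares 1150 exonic bases with the antisense gene Nif3l1 (31.3 and 35.2 CPM), so its values are uncertain.

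Among the licensing factors, Cdt1 had the lowest ratio of all members. It stood at 93.8 CPM in the vehicle library and 69.0 CPM in the brequinar library, 1.36-fold lower (interval 1.30 to 1.42), and this direction held under each scaling tried. Its partner in loading, Cdc6, was at 77.6 and 77.2 CPM. Gmnn encodes geminin, which binds Cdt1 and blocks relicensing, and was at 86.1 and 82.2 CPM. Per kilobase of exon, Cdt1 was 0.509 of Gmnn in the vehicle and 0.392 in the brequinar library. A site just after the Cdt1 start (chr8:122568036-122568064, plus strand) shows its E2F word in capitals.
Cdt1: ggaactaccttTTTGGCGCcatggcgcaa

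The kinase that fires licensed origins was higher in the brequinar library in both subunits. Cdc7, the catalytic subunit, was at 23.0 and 30.5 CPM (1.33-fold higher, interval 1.23 to 1.44), and Dbf4, its activator, at 63.8 and 81.8 CPM (1.28-fold higher, interval 1.22 to 1.34). Both differences kept their sign with every alternative, and both lie under 1.5-fold.

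The factors that activate the loaded helicase did not share a direction. Cdc45, which completes the active helicase, was higher at 133 and 150.2 CPM (1.13-fold, interval 1.09 to 1.17). Mcm10, needed for origin melting, was lower at 84.6 and 74.1 CPM. Of the GINS subunits, Gins1 (33.7 and 29.9 CPM) and Gins2 (46.5 and 42.0 CPM) were lower with intervals below 1. Gins2 shares 2758 exonic bases with the antisense gene Gse1 (84.9 and 78.6 CPM), so its direction is uncertain. With TMM scaling, Gins4 (40.1 and 38.0 CPM) and Gins3 (22.2 and 23.5 CPM) were within counting error of equal levels, although all 4 proteins form 1 complex.

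Subunits of the polymerases also split. In polymerase alpha and primase, which lay down primers, the catalytic Pola1 was higher at 109 and 139 CPM (1.27-fold, interval 1.22 to 1.32), whereas the regulatory Pola2 was lower at 60.5 and 48.5 CPM (1.246-fold, interval 1.18 to 1.32). The primase subunits Prim1 (77.7 and 89.5 CPM) and Prim2 (78.8 and 83.8 CPM) lay between them. The lagging-strand polymerase delta was slightly lower in Pold1 (148 and 134 CPM) and Pold2 (75.4 and 66.0 CPM), with Pold3 at 79.7 and 77.8 CPM. The leading-strand polymerase epsilon was slightly higher in Pole (92.3 and 98.7 CPM) and Pole2 (32.8 and 35.7 CPM). Every one of these ratios lay within 1.3-fold.

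Pcna, the sliding clamp that holds polymerases on DNA, was at 440 CPM in the vehicle and 502 CPM in the brequinar library (1.14-fold higher, interval 1.12 to 1.16). Its processed pseudogene Pcna-ps2 took 4.87 and 5.92 CPM, so an uncertain small share of Pcna reads can be placed there. The loader RFC split by subunit. Rfc4 (63.0 and 81.9 CPM, 1.30-fold higher), Rfc3 (42.5 and 54.7 CPM, 1.29-fold higher) and Rfc5 (105 and 123 CPM) were higher. Rfc2 was lower at 154 and 130.2 CPM, and Rfc1, the large subunit, was at 154 and 149 CPM. Rfc2 overlaps Lat2 by 952 exonic bases on the other strand, and Lat2 stood at 19.8 and 3.90 CPM, so the direction of Rfc2 is uncertain. Rfc5 likewise overlaps Wsb2 by 499 exonic bases on the other strand, and Wsb2 stood at 20.1 and 37.8 CPM. Dscc1, part of an alternative loader, was among the 3 members of lowest count (13.2 and 11.99 CPM, interval of the fold 0.810 to 1.019).

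Replication protein A coats single-stranded DNA as a complex of a large, a middle and a small subunit, whose genes again differed. Rpa1 was higher at 249.99 and 292 CPM, Rpa2 lower at 96.9 and 86.4 CPM, and Rpa3 was at 49.8 and 48.7 CPM. Fen1, the nuclease that trims Okazaki fragments, was at 129.7 and 139 CPM, and Lig1, the ligase that seals them, at 266 and 274 CPM. The histone chaperone subunits Chaf1a (139.5 and 143 CPM) and Chaf1b (55.6 and 51.4 CPM) stood at near equal levels in both libraries. Chaf1a shares 4648 exonic bases with the antisense gene Ubxn6 (33.6 and 32.6 CPM), so its values are uncertain.

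**Figure D3:**
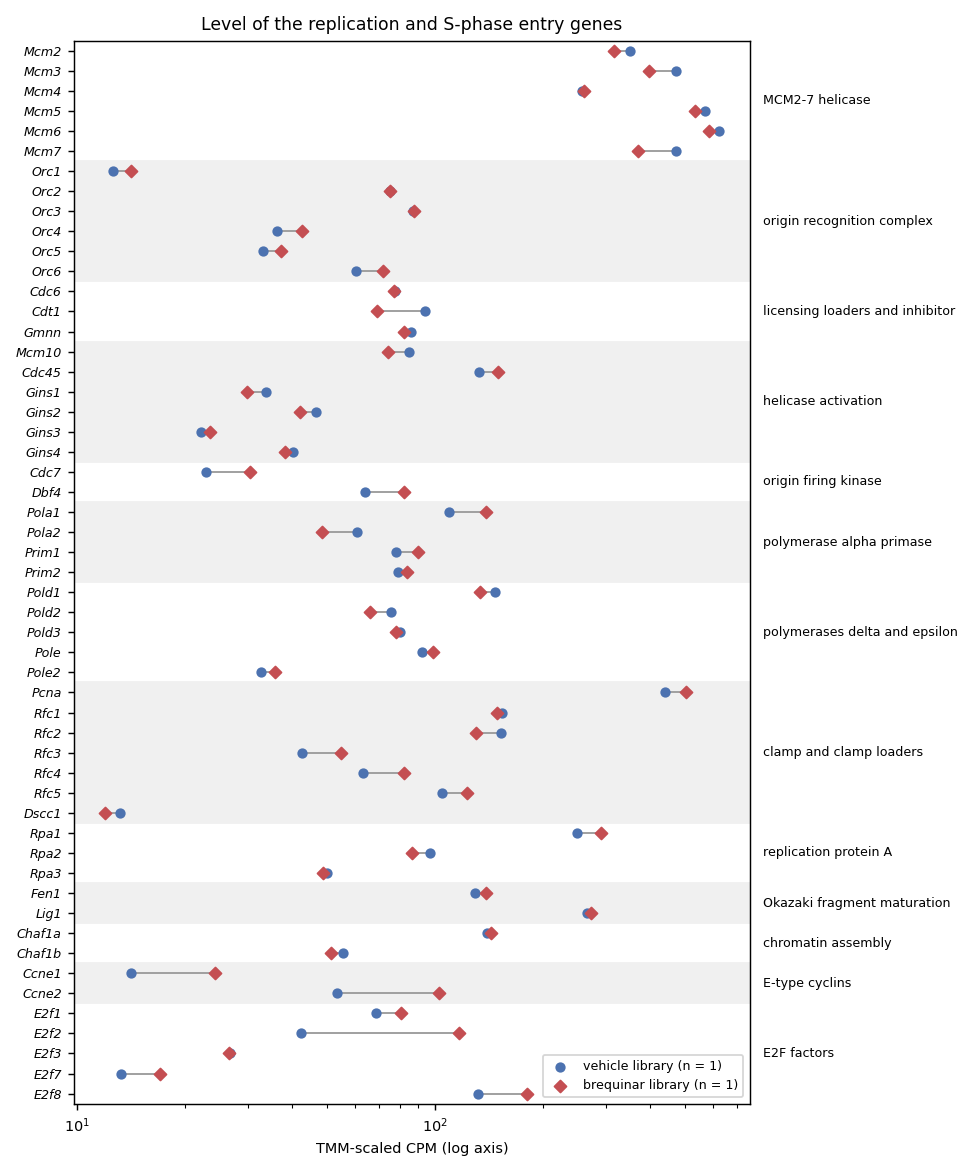
TMM-scaled CPM of each gene on a log axis in the vehicle library (circles) and the brequinar library (diamonds), 1 library each. Most pairs of symbols lie close together, and the longest lines belong to E2f2, Ccne2 and Ccne1.

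Both E-type cyclins, which activate Cdk2 at the entry into S phase, were higher in the brequinar library. Ccne2 (chromosome 4, 11191351 to 11204779, plus strand) had 2643 and 4765 counts, or 53.4 and 103 CPM, a ratio of 1.92 (interval 1.83 to 2.01). Ccne1 (chromosome 7, 38097984 to 38107534, minus strand) had 700 and 1126 counts, or 14.1 and 24.2 CPM, a ratio of 1.71 (interval 1.56 to 1.89). Both stayed above 1.5-fold under all scalings. Ccne2 shares 609 exonic bases with the antisense gene Ints8 (45.1 and 52.4 CPM), and Ccne1 overlaps no annotated gene.

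With TMM scaling, their partner kinase Cdk2 was within counting error of an equal level (113 and 116 CPM, interval of the fold 0.985 to 1.06). Ccna2, the cyclin of S phase and G2, was higher at 174 and 294 CPM (1.69-fold, interval 1.65 to 1.74). The inhibitors of cyclin E kinase were higher as well. Cdkn1a, which encodes p21, stood at 25.5 and 329.6 CPM, Cdkn1c (p57) at 2.18 and 7.02 CPM and Cdkn1b (p27) at 25.4 and 42.0 CPM. In the brequinar library, genes of E-type cyclins and genes of their inhibitors were thus both higher.

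E2f2, one of the E2F activators, had the largest ratio of all members. It stood at 42.2 CPM in the vehicle library and 117 CPM in the brequinar library (2089 and 5427 counts), 2.77-fold higher (interval 2.63 to 2.91). The gene lies on chromosome 4 (136172394 to 136196057, plus strand) and overlaps no other annotated gene. The related activators differed far less, E2f1 at 68.3 and 80.3 CPM (1.18-fold, interval 1.12 to 1.23) and E2f3 at 26.9 and 26.5 CPM (interval 0.914 to 1.07). In CPM per kilobase of exon, E2f1 was above E2f2 in both libraries (21.7 against 8.65 in vehicle, 25.5 against 23.9 in brequinar). The order of these genes was not checked with the longest transcript as length. The E2F word of the E2f2 window, in capitals, starts at base 40 after the RefSeq start (chr4:136172302-136172323, plus strand), upstream of the GENCODE start.
E2f2: gcggcatatagTTTGGCGCtaa

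The atypical repressors E2f8 and E2f7, which turn E2F targets down late in S phase, were higher by less than 1.5-fold. E2f8 was at 132 and 181 CPM (1.37-fold, interval 1.33 to 1.42) and E2f7 at 13.3 and 17.1 CPM (1.29-fold, interval 1.16 to 1.43). Among the 5 E2F members, 4 were above 0, both repressors included, and E2f3 was at -0.017.

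Several lists of markers of other cell types and of maturing neutrophils also differed between the libraries. Of 14 tested erythroid markers, 13 had a ratio of 2-fold or more in favour of brequinar, as had 6.45% of all genes tested. The 15 listed erythroid genes summed to 29.4 and 122 CPM, a difference of 92.4 CPM beside one of 74.6 CPM for E2f2 alone. Gata1, the erythroid master factor, was at 0.465 and 2.09 CPM and Hba-a1 at 12.5 and 44.2 CPM, and no erythroid marker was at 0 in either library. All 10 markers of maturing neutrophils, which leave the cell cycle, were at least 2-fold higher (668 and 8727 CPM summed), as were 6 of 8 marrow macrophage markers (4.81 and 45.6 CPM summed). The other 2 macrophage markers, Adgre1 and Vcam1, were the abundant ones (590.6 and 721 CPM summed). Both tested megakaryocyte markers were higher, with 2.81 and 9.11 CPM summed over 5 genes and Gp6 at 0 in the brequinar library. Of 4 tested B cell markers 1 was higher and 1 lower (32.1 and 19.9 CPM summed over 8 genes), and the 7 T and NK cell markers summed to 1.01 and 2.99 CPM. Whether the neutrophil markers came from the leukaemia cells or from other cells was not tested. The part of any of these cells in the values of E2f2, of the cyclins and of the other members was not tested.

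The leukaemia markers checked against the label were present in both libraries. Hoxa9 stood at 238 and 231 CPM and Meis1 at 71.6 and 87.4 CPM. Kit was lower in the brequinar library (180.3 and 76.5 CPM), as were Mpo, Cebpa and Elane. Higher were Itgam (399 and 1234 CPM), Ptprc (286 and 538 CPM) and Spi1 (287 and 392 CPM).

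Levels per length separated the members more than treatment did. Over the 53 genes the median was 20.1 CPM per kilobase of exon (vehicle) and 21.98 (brequinar), while the members spanned from 1.47 (E2f7) to 183 (Pcna) in vehicle. Pcna was highest in both libraries (183 and 209 CPM per kilobase), followed by Mcm5 (143 and 133), Mcm6 (133 and 125), Mcm3 (126 and 105) and Mcm7 (107 and 83.4). Per kilobase of exon, Mcm4 (71.9 and 72.7) and Mcm2 (50.4 and 45.6) were the lowest of the helicase. On this measure, subunits that form a ring of equal parts spanned 2.83-fold in the vehicle and 2.93-fold in the brequinar library. With the longest transcript as length, Mcm2 stood above Mcm4 in both libraries, so which subunit is lowest depends on the length used. The span is given for exon length only. The origin complex ran from Orc6 (24.3 and 29.0) down to Orc1 (3.62 and 4.06). Within RFC, Rfc4 was 1.61 times Rfc1 in vehicle and 2.15 times in brequinar.

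**Figure D4:**
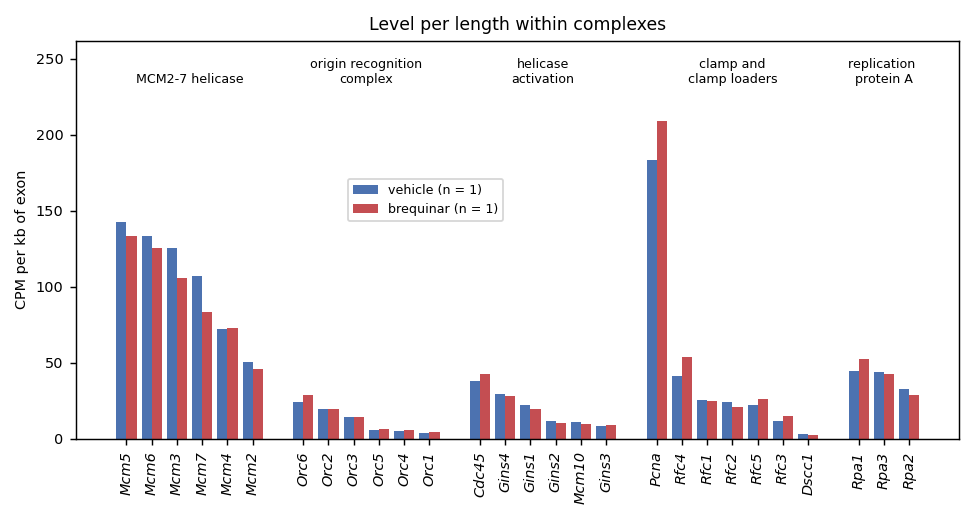
CPM per kilobase of exon for the subunits of 5 groups, in the vehicle (blue bars) and brequinar (red bars) library, ordered by the vehicle value. Pcna and 4 MCM genes stand above 80 in both libraries, and the order of subunits within a group is largely shared.

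Other genes of the same pathways were taken from lists by function. Beside each list, 12.7% of all genes tested were at least 1.5-fold higher and 12.7% at least 1.5-fold lower. Among 31 further fork and origin genes, 1 was at least 1.5-fold higher (3.23%, or 0 genes with total counts). Of the same genes 2 were lower (6.45%, or 0 genes with the length and GC correction), and the median log2 ratio was -0.012. Asf1b, a histone chaperone, was higher (105 and 161 CPM), and Rnaseh2a (67.5 and 43.1 CPM), which encodes the catalytic subunit of ribonuclease H2, and Recql4 (26.7 and 17.2 CPM), a helicase of origin firing, were lower. Damage tolerance polymerases and their partners had none of 13 higher and 1 lower (2 with total counts), with a median of -0.038. That gene was Mad2l2 (22.2 and 14.4 CPM), a subunit of polymerase zeta, beside Primpol at 11.98 and 8.09 CPM and Rev1 at 39.9 and 57.3 CPM.

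Partners and restrainers of E2F had a median of 0.21, with 2 of 13 at least 1.5-fold higher (15.4%, near the 12.7% of all genes tested) and 1 lower. With total counts 1 was higher and 1 lower. The pocket protein genes Rbl2 (p130; 72.6 and 123 CPM) and Rb1 (55.2 and 88.1 CPM) were the 2 higher ones, and E2f5, near the filter (1.41 and 0.861 CPM), was the lower one. Mybl2, a factor of the late cell cycle programme, was at 70.1 and 81.3 CPM. Of 14 S-phase kinases, ligases and inhibitors 4 were higher at 1.5-fold (28.6%, beside 12.7% of all genes tested) and none lower (1 with total counts). The 4 were the 3 inhibitor genes above and Ccna2, and the median was 0.055 (-0.037 with total counts).

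Genes of deoxynucleotide supply were mostly higher in the brequinar library. Of 10 genes 5 passed 1.5-fold upward (50%, beside 12.7% of all genes tested) and 0 downward, and the median was 0.40. With total counts 3 passed 1.5-fold upward. They include Samhd1, a dNTP hydrolase (89.5 and 239 CPM), Dck, the salvage kinase of deoxycytidine (55.3 and 97.5 CPM), and Rrm2, the regulated subunit of ribonucleotide reductase (173 and 297 CPM). Tk1, thymidine kinase and a classical E2F target, was at 88.0 and 94.1 CPM.

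For G2 and mitosis, all 26 listed genes had log2 ratios above 0, and the median was 0.59. Of them 15 were past 1.5-fold (57.7%, beside 12.7% of all genes tested). The count past 1.5-fold was 9 with total counts and with upper-quartile scaling. Top2a, which untangles chromosomes, was at 582 and 834 CPM, and Mki67, a marker of cycling cells, at 498 and 707 CPM. Aurka (90.1 and 164 CPM), Plk1 (73.5 and 129 CPM) and Nusap1 (104 and 179 CPM) had the largest ratios. The replication members, by contrast, had 3 of 53 at this size and a median of 0.040. With 1 library per treatment the difference between the lists was not tested.

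**Figure D5:**
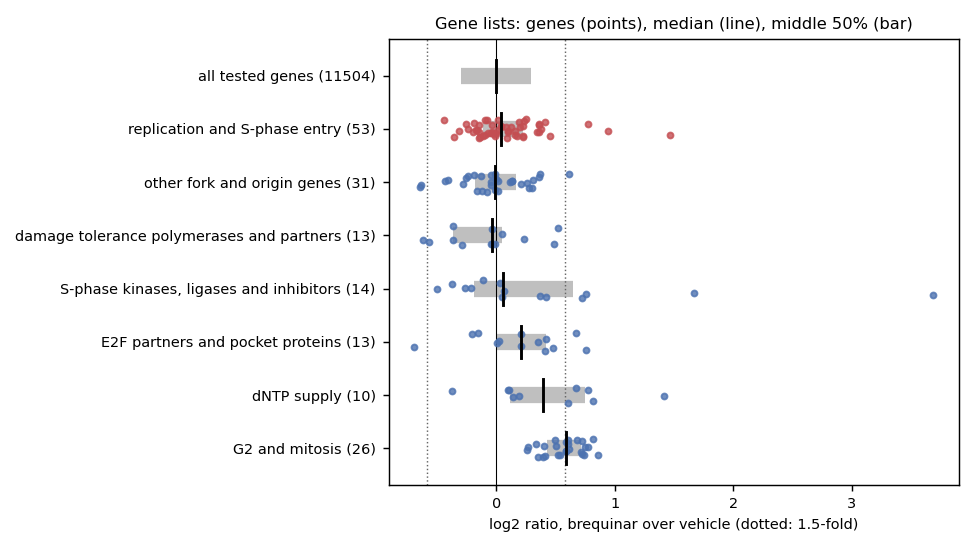
Log2 ratio of brequinar over vehicle for each gene (points) of the replication members and of 6 other lists, with the median (line) and quartiles (bar), and the same summary for all 11504 genes tested. Dotted lines mark 1.5-fold. Replication members centre at 0.040, other fork genes at -0.012, dNTP supply at 0.40 and G2 and mitosis at 0.59.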

How the data were processed

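The authors deposited raw counts per gene for both libraries. Per the labels' protocols, poly(A)-selected, strand-preserving libraries were read as paired ends of 101 bases. Per the submitters' processing notes, STAR 2.4.2a, Picard 1.99 and Picard 2.2.4 were used with build mm10. Which counting program, strand setting and annotation were used is not given in the sources used here. Reads on 4 closing lines that name no gene made up 21.6% (vehicle) and 20.2% (brequinar) of all reads and were left out.

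Symbols, coordinates and exon lengths came from GENCODE mouse release 21 (GRCm38), which named 44671 identifiers, and promoter windows from RefSeq (GRCm38.p6), taking per gene the window nearest the GENCODE start. Scaling used TMM factors from edgeR 4.0.16 in R 4.3.3, and log2 ratios used a prior count of 2. A gene was called at 1.5-fold or 2-fold, with no test. Ratios given as folds use no prior count. Intervals are Clopper-Pearson intervals conditional on the summed count. The procedure was tested on simulated counts with counting (Poisson) error only. That setting holds no spread between animals and no PCR copies, so it cannot show whether the intervals cover these. Python 3.11.15, scipy 1.17.1 and statsmodels 0.14.6 were used. A single count was worth 0.0202 and 0.0215 CPM.

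Named genes were all members, the 3 genes of largest absolute log2 ratio in each of 6 pathway lists, 9 fixed genes, and neighbours that start within 1000 bases on the other strand. Other genes named are marker genes, genes that overlap a member, and Cdkn1b, which completes a count of 4 and was chosen after its values were seen. Members, lists and thresholds were chosen with earlier results of these data known. Alternatives were other scalings (DESeq2 1.42.0 among them), filters, prior counts, a length and GC correction, and leaving out members that overlap another gene.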

Additional observations from a re-analysis of the deposited data

How the results depend on the processing

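Of the 53 members, 3 were at least 1.5-fold higher and none lower under all 9 changes of scaling, filter, prior count or correction, and 1 passed 2-fold in each. The median log2 ratio of 0.040 became -0.051 with total counts, -0.040 with totals without the 50 most abundant and mitochondrial genes, and -0.035 over the 25 members that overlap no other annotated gene, where 2 were 1.5-fold higher. Total counts and the length and GC correction (lowess, span 0.3) each turned the sign of 7 members, all with an absolute log2 ratio of at most 0.09. Against total counts, TMM shifted every ratio by 0.092. With the longest transcript as length, the median level was 27.9 (vehicle) and 28.4 (brequinar) CPM per kilobase in place of 20.1 and 21.98. The same 5 genes led in each library, but their order changed, and Mcm2 stood above Mcm4. Among members, their neighbours and the pathway genes of the naming rule, none of at least 1.5-fold changed direction; Cdkn1b and the marker genes were not recomputed singly. No paired analysis was possible because each treatment has 1 library. Without replicates, spread between animals and sorts cannot be estimated. The lowest member counts were 624 and 557, so depth limits few values.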

Other observations

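Of the 53 members, 13 have a tested neighbour that starts within 1000 bases on the opposite strand. With brequinar, 0 of these 13 neighbours were 1.5-fold higher and 3 were 1.5-fold lower, beside 12.7% of all genes tested in each direction. Prkdc, the DNA-dependent protein kinase gene that starts 466 bases from Mcm4, was at 50.8 and 28.7 CPM, while Mcm4 was at 258 and 261 CPM. Ap4m1, an adaptor protein gene that starts 420 bases from Mcm7, was at 61.2 and 30.03 CPM, and Mcm7 at 473 and 369 CPM. Pxmp2, a peroxisomal membrane protein gene that starts 120 bases from Pole, was at 3.70 and 1.70 CPM, and Pole at 92.3 and 98.7 CPM. These 3 pairs are named because the neighbour was 1.5-fold lower. No member was, so the lower ratio of the neighbour follows from that choice. Other pairs differed little, such as Orc6 (60.0 and 71.6 CPM) and Vps35 (238 and 292 CPM), or Cdc45 (133 and 150.2 CPM) and Ufd1 (56.2 and 60.8 CPM). Orc6 and Vps35 share 171 exonic bases and Cdc45 and Ufd1 share 209, and whether counting used strand is not known here. Fen1 and Tmem258 (108 and 79.1 CPM) and Gins1 and Abhd12 (32.3 and 24.6 CPM) had neighbours that were lower by less than 1.5-fold.

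Members lie on 16 chromosomes, with 9 on chromosome 5 and 6 on chromosome 8. Of all members, 28 overlap another annotated gene and 21 share exonic bases with one.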
